A study of Bos taurus with 8 samples.

Results

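The matrix metalloproteinase (MMP) genes MMP1, MMP2, MMP3, MMP9, MMP11, MMP13 and MMP14 and the inhibitor genes TIMP2 and TIMP3 were examined for DNA methylation in bovine dermal fibroblasts. They were found in the files by gene symbol, and the files hold all 9 of them among 26209 named genes, in 49 of 902984 consecutive 3Kb windows of the UMD v3.1 genome, together with 36 flanking windows, 2 on each side of each gene. Fibroblasts came from shoulder skin of 4 Holstein heifers (a dairy breed) and 4 Angus heifers (a beef breed) of one age, were grown without any treatment in medium with fetal bovine serum and were used at passage 5, with 1 MIRA-Seq library per animal. MIRA-Seq pulls down sonicated genomic DNA with methyl-CpG binding proteins and sequences what is bound, so that a window with more reads held more pulled-down, methylated DNA, and the comparison of the breeds asks whether that amount differed between dairy and beef cattle. Because a window rich in CpG sites can yield more reads at the same share of methylated sites, levels between windows or genes are pull-down levels and not percentages of methylation. The libraries hold DNA and no transcript, so the fibroblast label cannot be checked against marker genes here, and the cultures model skin fibroblasts after growth in vitro rather than the intact tissue.

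MMPs are zinc-dependent endopeptidases that are made as inactive proenzymes and cut the proteins of the extracellular matrix, and fibroblasts are a main source of them in connective tissue. Collagenases open the triple helix of fibrillar collagen, gelatinases degrade the denatured chains and basement membrane collagen, stromelysins have a wider range of substrates, and membrane-type MMPs act at the cell surface. Tissue inhibitors of metalloproteinases (TIMPs) bind the active site of the enzymes and block it.

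Levels per window are given as CPM, the reads of a window divided by the reads of its library over all windows and scaled to 1000000 reads, and levels per gene as RPKM, which is the same measure per kilobase of the summed windows of the gene. Reads over windows ranged from 18691111 in Angus 4 to 35525554 in Holstein 4, so that 3 reads corresponded to between 0.0844 and 0.161 CPM, and such limits cover counting error only. Reads on unplaced scaffolds made up 10.6% to 26.1% of a library, the most in Angus 3 and, with 19.98%, in Holstein 1 after it. The 49 windows together held 41.9, 59.6, 56.5 and 65.4 CPM in Holstein 1 to 4 and 49.4, 55.6, 36.4 and 56.7 CPM in Angus 1 to 4, lowest in the same pair of libraries, and TMM scaling narrowed this range to 48.5 to 53.7. Angus 3 had the lowest RPKM of all libraries in 6 of the 9 genes before TMM scaling and in 2 after it. The CPM and RPKM values below are not TMM scaled, whereas every fold change is. In what follows, the 4 values of a breed are given in the order of animals 1 to 4.

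MMP11 stood at the top of the 9 genes and MMP13 at the bottom. The mean RPKM over the 8 libraries was 1.48 ± 0.320 (SD, n = 8) for MMP11, which placed it at percentile 97.5 of 26140 named genes, and 0.0745 ± 0.0307 for MMP13, at percentile 19.0. Between them came MMP14 with 0.515 ± 0.109, TIMP2 with 0.355 ± 0.0696, MMP2 with 0.300 ± 0.0603, MMP1 with 0.300 ± 0.0908, TIMP3 with 0.217 ± 0.0575, MMP9 with 0.190 ± 0.0552 and MMP3 with 0.160 ± 0.0527. The median over all named genes was 0.174 RPKM, with quartiles of 0.0883 and 0.401, so that 7 of the members lay within the quartiles or below them. Of the neighbours in this order, MMP11 exceeded MMP14 by 2.87-fold with no overlap between the ranges of the libraries. MMP14 exceeded TIMP2 by 1.45-fold, TIMP2 exceeded MMP2 by 1.18-fold and MMP3 exceeded MMP13 by 2.15-fold, each in 8 of 8 libraries, although the ranges overlapped. MMP2 and MMP1 did not differ beyond their spread, as MMP2 was the higher of the pair in 3 of 8 libraries. MMP1 was above TIMP3 in 6, TIMP3 above MMP9 in 6 and MMP9 above MMP3 in 5 of 8 libraries, so the order among these genes was not held by every animal.

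**Figure D1:**
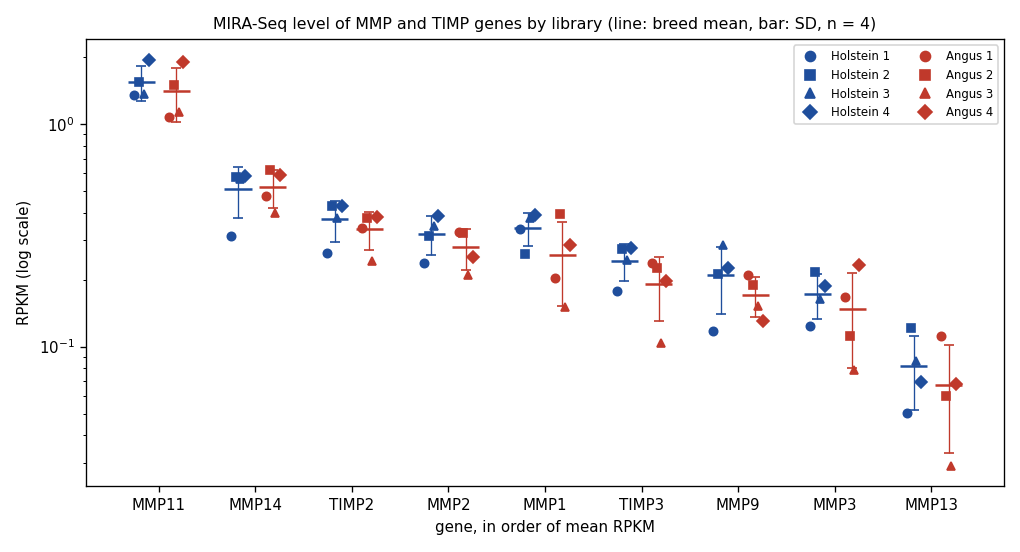
RPKM of each gene (log scale) in the 4 Holstein and the 4 Angus libraries, in order of the mean RPKM. MMP11 lies apart at the top, between 1.08 and 1.95 RPKM, and the Holstein and Angus libraries overlap in every gene on this scale, which is not TMM scaled.

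No member gene was called as different between the breeds. By the edgeR likelihood-ratio test on the summed windows of a gene, with calls at a Benjamini-Hochberg FDR under 0.1 and a fold change of at least 2, 0 of the 9 genes were called, against 0.0721% of all genes tested, and 0 had an unadjusted p under 0.05, against 1.97%. The edgeR quasi-likelihood test gave 0 called member genes and 0 with an unadjusted p under 0.05, against 0% and 1.78% of all genes. Before TMM scaling the libraries of the breeds overlapped in RPKM for all 9 genes, whereas 0.325% of genes did not overlap. After TMM scaling TIMP3 no longer overlapped, as described with that gene, and the share of all genes on that scale was not computed. Log2 fold changes, Holstein against Angus, ran from -0.19 to 0.30 with a median of 0.12, beside a median of -0.00 over all genes tested, and 7 were above 0 and 2 below. Standard errors ran from 0.11 to 0.29, and the 95% interval of every member gene lay between 0.714-fold and 1.76-fold. A 2-fold difference in the summed windows that carry a gene's name was thus outside the interval for each of the 9, and smaller differences remain possible. These sums are not whole genes throughout. TIMP3 is summed over 4 of the 20 windows of its span, and the windows of MMP1 may not hold its start. The p-values measure the spread between cultures of separate animals, with 1 library each.

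Among single windows, 17 of the 49 passed the CPM filter of the main test (1 CPM or more in 4 or more of the 8 libraries), a filter passed by 12.8% of all windows. The edgeR likelihood-ratio test called 0 of these 17, against 0.231% of all windows tested, and the quasi-likelihood test called 0, against 0.122%. Without the CPM filter, 0 of the 49 windows were called by the likelihood-ratio test, against 0.102%. Before TMM scaling the breeds overlapped in CPM in all 49 windows, whereas 1.25% of windows with any reads did not overlap. In the fit without the filter 29 windows had a log2 fold change above 0 and 20 below, from -0.67 to 0.65 with a median of 0.03, and the 95% interval lay inside 2-fold for 39 of the 49. A single window had an unadjusted p under 0.05 in either fit, the first MMP1 window, which is described with its gene, against 4.94% of windows tested with the filter and 4.55% without it. Of the 36 flanking windows 6 passed the filter, and 0 were called with or without it.

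**Figure D2:**
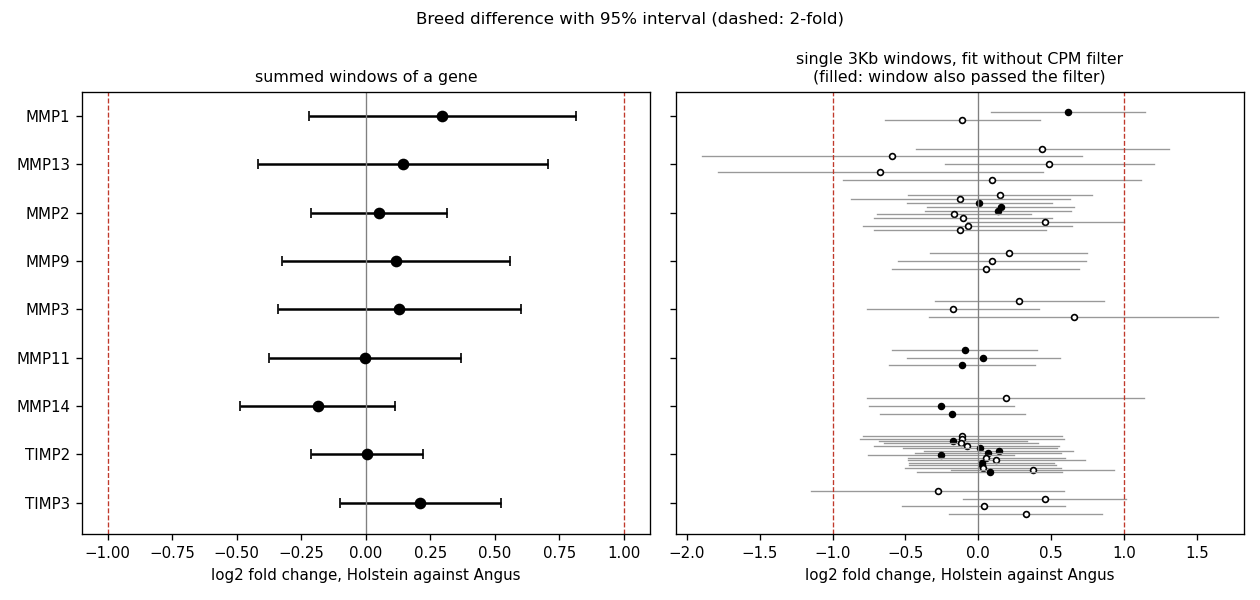
Log2 fold change, Holstein against Angus, with its 95% interval for each gene sum (left) and for each of the 49 windows in the fit without the CPM filter (right, filled where the window also passed the filter), with dashed lines at 2-fold. All 9 gene intervals lie inside the dashed lines, and among the windows the first MMP1 window at 0.61 has an interval that does not cross 0.

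The collagenases were MMP1 and MMP13, both on chromosome 15. MMP1, interstitial collagenase, cleaves collagens of types found in skin, and its name was carried by 2 windows on the forward strand, at chr15:6135657-6141656. The files give the first of them coding exon 6 and name the windows before it LOC100848085, so whether its first window here holds the start of MMP1 is not shown. RPKM of MMP1 was 0.337, 0.260, 0.378 and 0.389 in Holsteins and 0.204, 0.394, 0.151 and 0.285 in Angus, with means of 0.341 ± 0.0588 and 0.259 ± 0.106 (SD, n = 4). Before TMM scaling Angus 2 was the highest of the 8 and Angus 3 the lowest, so the Angus values spanned those of every Holstein. With RPKM divided by the TMM factors of the gene fit, Holstein 1 was the highest and Angus 1 the lowest, and the breeds still overlapped. The log2 fold change was 0.30 (SE 0.26, 95% interval -0.22 to 0.81) with an unadjusted p of 0.262 in the edgeR likelihood-ratio fit over all genes, on 27 to 83 reads per library. It was 0.13 without Angus 1, 0.13 without Holstein 1 and 0.50 without Angus 2.

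The first MMP1 window, chr15:6135657-6138656, was also its highest by mean and held 1.06, 1.04, 1.48 and 1.32 CPM in Holsteins against 0.384, 1.39, 0.672 and 0.321 in Angus. Before TMM scaling Holstein libraries lay above 3 of the 4 Angus libraries, and Angus 2 lay within the Holstein range. With CPM divided by the TMM factors of the filtered window fit, Angus 3 lay within the Holstein range as well. The means were 1.22 ± 0.211 and 0.692 ± 0.490 (SD, n = 4), and the log2 fold change in the filtered edgeR fit was 0.63 (SE 0.31, 95% interval 0.02 to 1.24), with an unadjusted p of 0.0409 and an FDR of 0.969. The values rest on 21, 24, 39 and 47 reads in Holsteins and on 11, 40, 20 and 6 in Angus, and the log2 fold change was 0.37 without Angus 4 and 1.09 without Angus 2, where the edgeR FDR was 0.141. The second MMP1 window had a mean of 0.841 CPM.

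MMP13, collagenase 3, which also cleaves cartilage collagen, covers 5 forward-strand windows at chr15:5910457-5925456, and 0 of them passed the CPM filter. Its RPKM was 0.0506, 0.121, 0.0858 and 0.0694 in Holsteins and 0.112, 0.0603, 0.0291 and 0.0678 in Angus. The log2 fold change was 0.14 (SE 0.29, 95% interval -0.42 to 0.71; edgeR unadjusted p 0.616) on 13 to 48 reads per library, the widest interval of the 9 genes. The first window, with coding exon 1, held 0.303, 0.390, 0.341 and 0.253 CPM in Holsteins and 0.279, 0.243, 0.0336 and 0.321 in Angus, that is 1 to 9 reads per library. Its window 3 (coding exon 6, chr15:5916457-5919456), held 0.303, 0.563, 0.568 and 0.450 CPM in Holsteins and 0.524, 0.209, 0.168 and 0.321 in Angus, and was both the highest and the one with the smallest p of the gene, where the fold change was 0.49 on the log2 scale (SE 0.37; edgeR unadjusted p 0.176). The windows of MMP13 had a mean of 0.223 CPM against 0.554 in its flanks. The flanks ran from 0.202 to 1.32 CPM with a median of 0.344, so their mean leans on the highest of them. The highest of the flanks was the window just after the gene, chr15:5925457-5928456, with 1.11, 1.08, 1.25 and 1.63 CPM in Holsteins and 1.29, 1.67, 0.739 and 1.82 in Angus.

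The gelatinases were MMP2 and MMP9. MMP2, gelatinase A, covers 10 forward-strand windows at chr18:23825798-23855797, and 3 passed the CPM filter. Its RPKM was 0.238, 0.313, 0.348 and 0.387 in Holsteins and 0.328, 0.325, 0.210 and 0.253 in Angus, with means of 0.321 ± 0.0633 and 0.279 ± 0.0573 (SD, n = 4). The breeds overlapped widely, and the log2 fold change was 0.05 (SE 0.13, 95% interval -0.21 to 0.31; edgeR unadjusted p 0.699).

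Reads of MMP2 were gathered in windows 3 to 5. The first window, with coding exon 1, held 0.506, 0.606, 0.454 and 0.619 CPM in Holsteins and 0.698, 0.348, 0.437 and 0.214 in Angus. The third (coding exon 2, chr18:23831798-23834797) held 1.97, 2.08, 2.65 and 2.39 CPM in Holsteins and 2.41, 2.16, 1.61 and 2.09 in Angus, and it was the highest window of the gene in 8 of 8 libraries. The mean over libraries was 0.485 CPM in the first window, 2.17 in the third, and between 0.325 and 1.53 in the remaining windows. The smallest p of the gene was in the eighth window (coding exon 11), with 0.556, 1.26, 0.946 and 1.35 CPM in Holsteins and 0.942, 0.904, 0.437 and 0.375 in Angus, where the breeds differed by 0.46 on the log2 scale (SE 0.27; edgeR unadjusted p 0.0886).

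MMP9, gelatinase B, which neutrophils also store and release, covers 3 forward-strand windows at chr13:75465797-75474796, and 0 passed the CPM filter. Its RPKM was 0.118, 0.212, 0.286 and 0.225 in Holsteins and 0.209, 0.189, 0.153 and 0.131 in Angus. Before TMM scaling Holstein 1 was the lowest and Holstein 3 the highest of the 8, and the log2 fold change was 0.12 (SE 0.23, 95% interval -0.33 to 0.56; edgeR unadjusted p 0.604). The first window (coding exon 1, chr13:75465797-75468796) was the highest of the gene and the one with its smallest p, with 0.556, 0.866, 1.21 and 0.929 CPM in Holsteins and 0.733, 0.939, 0.470 and 0.642 in Angus. Means were 0.890 ± 0.269 and 0.696 ± 0.195 (SD, n = 4), with a log2 fold change of 0.21 (SE 0.27; edgeR unadjusted p 0.442).

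The stromelysins were MMP3 and MMP11, which stood far apart in level. MMP3, stromelysin 1, which can activate other proMMPs, covers 3 forward-strand windows at chr15:6027557-6036556, and 0 passed the CPM filter. Its RPKM was 0.124, 0.216, 0.164 and 0.188 in Holsteins and 0.167, 0.112, 0.0784 and 0.232 in Angus, and its log2 fold change was 0.13 (SE 0.24, 95% interval -0.34 to 0.60; edgeR unadjusted p 0.589). Its first window (coding exon 1), also its highest by mean, held 0.657, 0.649, 0.757 and 0.788 CPM in Holsteins and 0.559, 0.313, 0.537 and 0.749 in Angus. In the third window (coding exon 10), the one with the smallest p, counts were 3, 11, 7 and 7 reads in Holsteins and 7, 5, 2 and 2 in Angus, which is 0.152, 0.476, 0.265 and 0.197 CPM against 0.244, 0.174, 0.0672 and 0.107. Its log2 fold change of 0.65 was the highest of the 49 windows, with an SE of 0.51 and an edgeR unadjusted p of 0.181.

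MMP11, stromelysin 3, is made by stromal fibroblasts and is activated inside the cell by furin. It covers 3 forward-strand windows at chr17:73213794-73222793, all of which passed the CPM filter. Its RPKM was 1.35, 1.54, 1.36 and 1.95 in Holsteins and 1.08, 1.495, 1.13 and 1.91 in Angus, with means of 1.55 ± 0.277 and 1.403 ± 0.384 (SD, n = 4). The breed means lay closer together than the SD within either breed, and the log2 fold change was -0.00 (SE 0.19, 95% interval -0.37 to 0.37; edgeR unadjusted p 0.992) on 241 to 622 reads per library.

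The second MMP11 window (coding exon 2, chr17:73216794-73219793) was the highest of the 49 in the mean over libraries. It held 8.45, 9.26, 8.29 and 10.4 CPM in Holsteins and 6.18, 8.34, 6.08 and 11.4 in Angus, with means of 9.11 ± 0.987 and 8.01 ± 2.52 (SD, n = 4) on 167 to 371 reads. The first window (coding exon 1) held 1.47, 2.16, 1.85 and 3.27 CPM in Holsteins and 1.36, 2.40, 1.71 and 2.78 in Angus, and every library was thus lower there than in the second window. The third window, which had the smallest p of the gene, held 2.28, 2.47, 2.12 and 3.80 CPM in Holsteins and 2.16, 2.71, 2.38 and 2.94 in Angus, and its log2 fold change in the filtered edgeR fit was -0.08 (SE 0.18; unadjusted p 0.667). In the second window the deposited coverage reached a maximum of 19.5 reads at a base, as the median over libraries, against a mean of 6.995 over the window.

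MMP14, the membrane-type enzyme that activates proMMP2 at the cell surface, lies on the reverse strand in 3 windows at chr10:21805401-21814400, of which 2 passed the CPM filter. Its RPKM was 0.315, 0.577, 0.568 and 0.582 in Holsteins and 0.473, 0.622, 0.399 and 0.589 in Angus, with means of 0.510 ± 0.131 and 0.521 ± 0.103 (SD, n = 4). Before TMM scaling Holstein 1 stood apart from the other Holsteins, which lay close together, and the log2 fold change was -0.19 (SE 0.15, 95% interval -0.49 to 0.11; edgeR unadjusted p 0.221). It was -0.16 without Holstein 1, -0.29 without Angus 1 and -0.021 with total counts in place of TMM scaling. After TMM scaling the Holsteins held 0.421, 0.469, 0.524 and 0.472 RPKM, and Holstein 1 no longer stood apart.

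The first MMP14 window, with coding exon 1 at chr10:21811401-21814400, was nearly empty, with 0, 5, 10 and 11 reads in Holsteins and 4, 11, 4 and 1 in Angus. These are 0, 0.216, 0.378 and 0.310 CPM in Holsteins, where the count of 0 allows up to 0.152 CPM in Holstein 1, and 0.1396, 0.382, 0.134 and 0.0535 in Angus. The second window (coding exon 5) held 1.42, 2.47, 2.19 and 2.45 CPM in Holsteins and 1.92, 2.61, 2.01 and 2.35 in Angus, and the third (coding exon 10, chr10:21805401-21808400) held 1.42, 2.51, 2.53 and 2.48 against 2.20, 2.61, 1.44 and 2.89. Both later windows were above the first in each of the 8 libraries, and the coverage in the second reached a maximum of 15.5 reads against a mean of 1.90. The smallest p of the gene was in the second window, where the filtered edgeR fit gave -0.21 on the log2 scale (SE 0.17; unadjusted p 0.209).

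Of the inhibitors, TIMP2, which also takes part in the activation of proMMP2 by MMP14, spans 18 forward-strand windows at chr19:54077075-54131074. Of these 16 carry its name, 8 of which passed the CPM filter, and 2 carry the name LOC100125412. Its RPKM was 0.263, 0.428, 0.377 and 0.429 in Holsteins and 0.343, 0.378, 0.242 and 0.381 in Angus, with means of 0.374 ± 0.0780 and 0.336 ± 0.0650 (SD, n = 4). With 250 to 732 reads per library it had the smallest standard error of the 9 genes, and its log2 fold change was 0.00 (SE 0.11, 95% interval -0.21 to 0.22; edgeR unadjusted p 0.966).

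The first TIMP2 window (coding exon 1, chr19:54077075-54080074) held 0.354, 0.563, 0.530 and 0.281 CPM in Holsteins and 0.873, 0.313, 0.168 and 0.268 in Angus. The highest window was the 12th of those named TIMP2 (coding exon 2, chr19:54116075-54119074), with 2.73, 3.38, 2.72 and 3.52 CPM in Holsteins and 2.06, 3.06, 2.01 and 3.80 in Angus, and it was the highest in 8 of 8 libraries. Its means were 3.09 ± 0.420 and 2.73 ± 0.859 (SD, n = 4), within each other's spread. The smallest p of the gene was in the 15th window, which has no coding exon, with 0.607, 0.995, 0.908 and 0.816 CPM in Holsteins and 0.768, 0.904, 0.235 and 0.375 in Angus, where the breeds differed by 0.37 on the log2 scale (SE 0.29; edgeR unadjusted p 0.188). TIMP2 was the member with enough windows of both kinds to compare coding with non-coding stretches, and its 4 windows with a coding exon averaged 1.61 CPM against 0.883 in the other 12. The coding windows were higher in 8 of 8 libraries, a pattern shared by 50.1% of genes with at least 2 windows of each kind. The pair named LOC100125412 averaged 2.65 and 1.71 CPM.

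TIMP3, which binds to the matrix and also inhibits ADAM and ADAMTS proteinases, lies on the forward strand within SYN3, a gene of the opposite strand, at chr5:71749006-71809005. Of the 20 windows of this span 4 carry the name TIMP3, those with its coding exons, and 16 carry the name SYN3, so TIMP3 is described by its exon windows and reads in them cannot be assigned to either strand. Its RPKM was 0.177, 0.274, 0.246 and 0.277 in Holsteins and 0.239, 0.226, 0.104 and 0.196 in Angus, with means of 0.243 ± 0.0464 and 0.191 ± 0.0610 (SD, n = 4). Before TMM scaling Angus 3 was lowest and the remaining libraries overlapped. With RPKM divided by the TMM factors of the gene fit, every Holstein library lay above every Angus library. The log2 fold change was 0.21 (SE 0.16, 95% interval -0.10 to 0.52; edgeR unadjusted p 0.185), or 0.13 without Angus 3.

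The first TIMP3 window (coding exon 1, chr5:71749006-71752005) held 0.101, 0.260, 0.265 and 0.310 CPM in Holsteins and 0.384, 0.243, 0.168 and 0.268 in Angus, on 2 to 11 reads. The second (coding exon 2, chr5:71797006-71800005), which had the smallest p of the gene, held 0.202, 0.995, 0.832 and 1.29 CPM in Holsteins and 0.733, 0.730, 0.336 and 0.428 in Angus. Holstein 1 was the lowest of all 8 there and the other 3 Holsteins were the highest, with a log2 fold change of 0.46 (SE 0.29; edgeR unadjusted p 0.104). The last (coding exon 4, chr5:71806006-71809005) was the highest by mean, with 1.26, 1.30, 0.984 and 0.985 CPM in Holsteins and 0.873, 0.974, 0.403 and 1.07 in Angus. The 16 windows named SYN3 between the first and last TIMP3 windows had mean levels from 0.166 to 0.830 CPM.

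**Figure D3:**
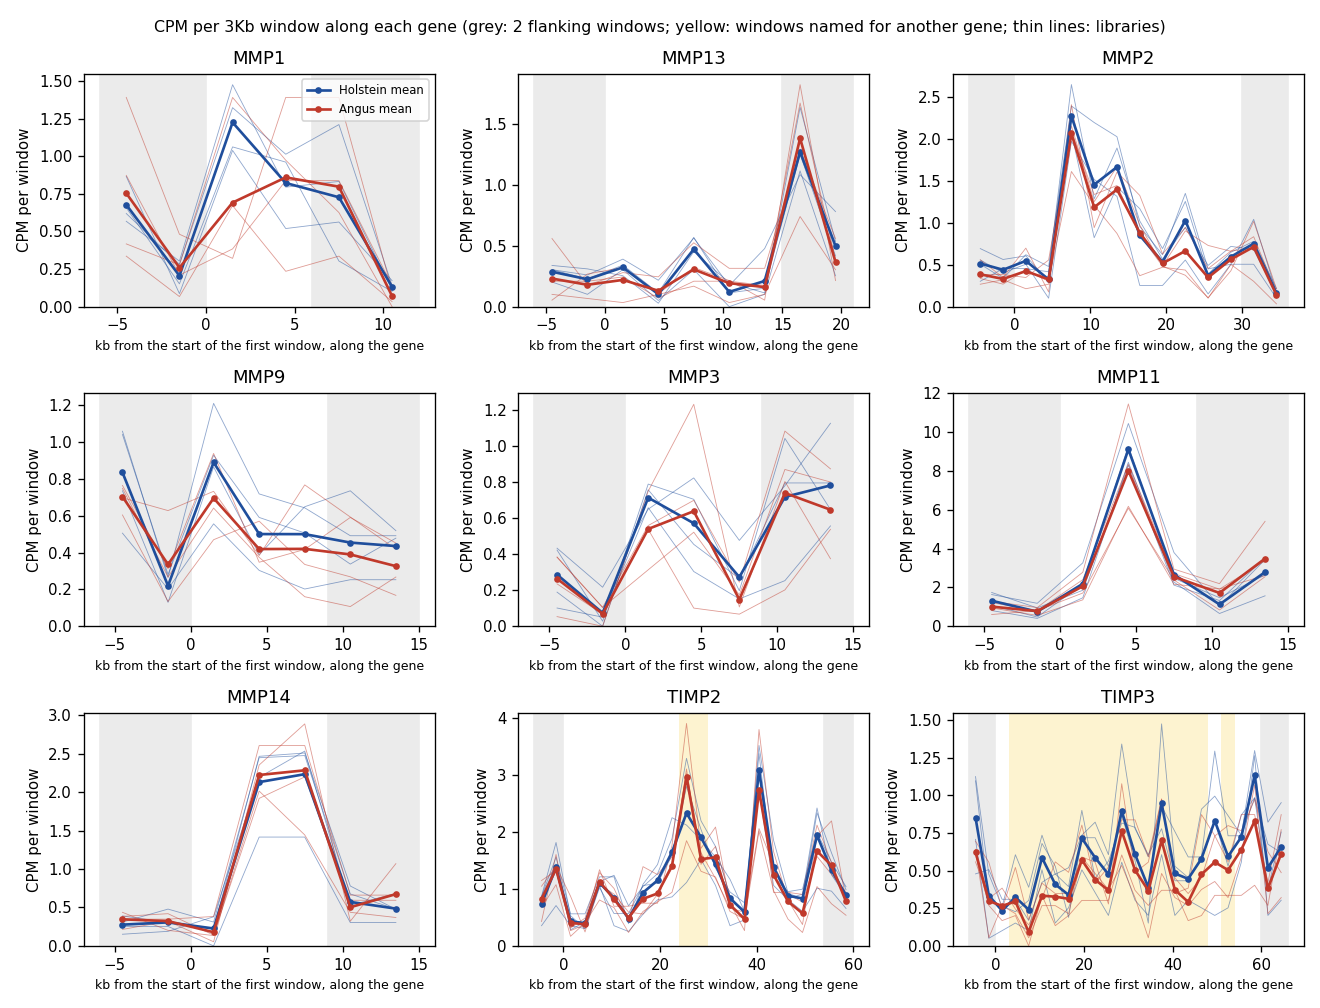
CPM of each 3Kb window along the 9 genes in transcript direction, against the distance in kb from the start of the first window, with thick lines for breed means, thin lines for libraries, grey for flanking windows and yellow for windows named for another gene. MMP2, MMP11, MMP14 and TIMP2 have a first window below the mean of their other windows and a later peak in both breeds. The peak of MMP11 has a mean of 8.56 CPM.

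Where along the gene the reads lay differed between members. The first window was lower than the mean of the other windows in 8 of 8 libraries in 5 of the 9 genes, which were MMP2, MMP11, MMP14, TIMP2 and TIMP3. The same held for 41.9% of all named genes with at least 2 windows, so the count of 5 is near the background. The other windows exceeded the first by 10.996-fold in MMP14, which placed its ratio at percentile 97.9 of named genes, by 3.15-fold in TIMP3, by 2.65-fold in TIMP2, by 2.63-fold in MMP11 and by 1.95-fold in MMP2. For MMP14 the first window ranged from 0 to 0.382 CPM and the mean of the others from 1.42 to 2.62, with no overlap.

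MMP9 showed the opposite order, with the first window above the mean of the others in 8 of 8 libraries (0.793 against 0.460 CPM), as did 17.4% of named genes. When the first MMP9 window was averaged with the window before it, that average was below the others in 2 libraries. In MMP3 the first window was lower in 1 library and level with the others in Holstein 2, in MMP13 it was lower in 2 and in MMP1 in 2, so no order held in every library for these 3 genes. All 3 lie on chromosome 15, and for MMP1 the first window may not hold the start of the gene.

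**Figure D4:**
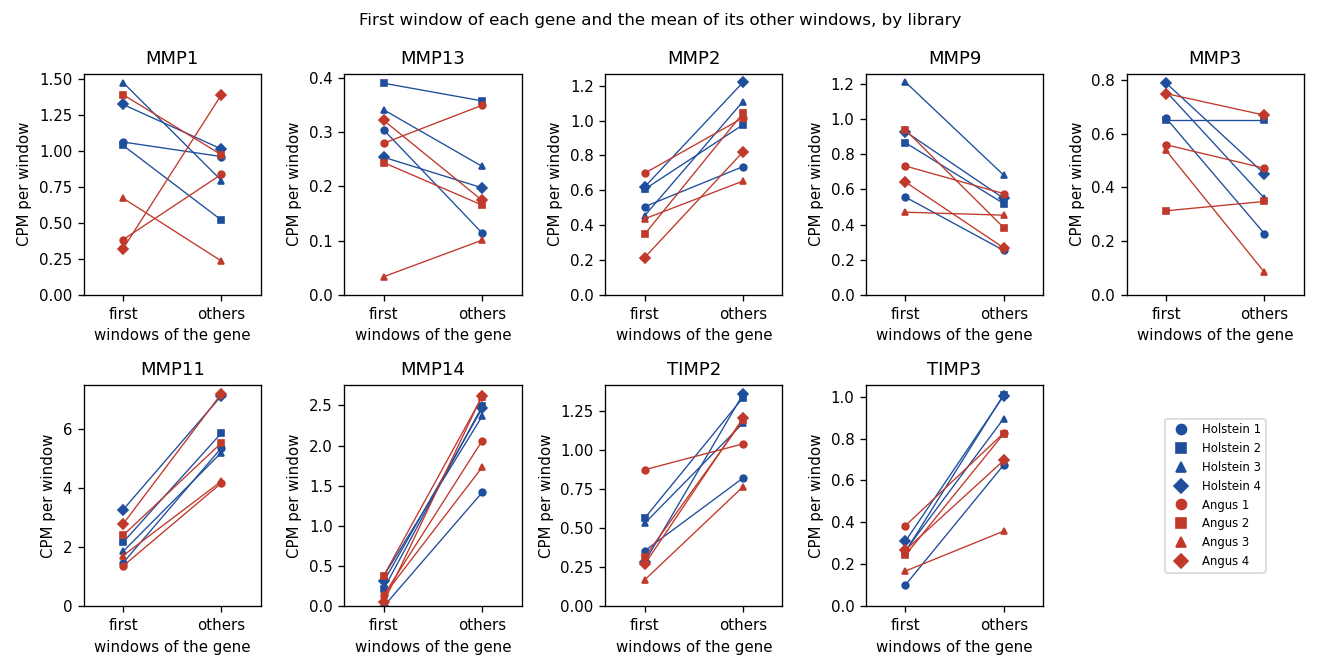
CPM of the first window and mean CPM of the other windows of each gene, with 1 line per library (blue for Holstein, red for Angus). Lines rise in all 8 libraries for MMP2, MMP11, MMP14, TIMP2 and TIMP3 and fall in all 8 for MMP9.

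The gene's windows were above the mean of its 4 flanking windows in 8 of 8 libraries in 5 of the 9 genes, MMP1, MMP2, MMP9, MMP11 and MMP14, against 40.1% of named genes. Some flanks carry other gene names, among them LOC100848085 before MMP1, CHCHD10 and SMARCB1 around MMP11, MRPL52 before MMP14 and SYN3 around TIMP3. The windows before MMP1 may hold its start. The means inside and outside were 4.43 and 1.62 CPM for MMP11, 1.55 and 0.435 for MMP14, 0.901 and 0.429 for MMP2, 0.900 and 0.453 for MMP1, and 0.571 and 0.463 for MMP9. TIMP2, with 1.07 against 1.09 CPM, was above its flanks in 3 libraries, MMP3 in 5 and TIMP3 in 6. Of the 8 members with at least 3 windows, 3 had the same highest window in all 8 libraries (MMP2, MMP11 and TIMP2), against 34.9% of such genes. In MMP14 window 3 was above window 2 in 5 libraries, level with it in 2 and below it in 1, and in the low genes MMP3 and MMP13 the highest window was shared by 4 and 5 libraries.

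Among 29 other genes of the system, the remaining MMP and TIMP genes and proteins known to activate, inhibit or clear MMPs such as RECK, plasminogen (PLG), FURIN and A2M, 26 were found in the files and 25 were tested as gene sums. By the edgeR likelihood-ratio test 0 were called, against 0.0721% of all genes tested, and 1 had an unadjusted p under 0.05, against 1.97%, with log2 fold changes from -0.14 to 0.44 and a median of -0.02. Of their 341 windows 97 were tested and 0 were called, against 0.231% of all windows tested. The first window was lower than the others in 8 of 8 libraries in 13 of the 25 with at least 2 windows, against 41.9% of named genes. Their mean RPKM ran from 0.0718 to 1.45 with a median of 0.323. The mean of MMP11, 1.48, lay close to that of the highest of the 26, THBS2, and the order of the pair by library was not examined.

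The MMP genes on chromosome 15 had a lower median level than those elsewhere, with overlapping ranges. The 8 MMP genes on chromosome 15, which include MMP1, MMP3 and MMP13, had mean levels of 0.0718 to 0.300 RPKM with a median of 0.150, and the 12 on other chromosomes, which include MMP2, MMP9, MMP11 and MMP14, had 0.120 to 1.48 with a median of 0.368. The median of the chromosome 15 genes was the lower in 8 of 8 libraries, at 0.0806 to 0.193 against 0.237 to 0.471 RPKM. The grouping by place was made after the values were seen and carries no test, and CpG content, which bears on pull-down, was not measured.

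**Figure D5:**
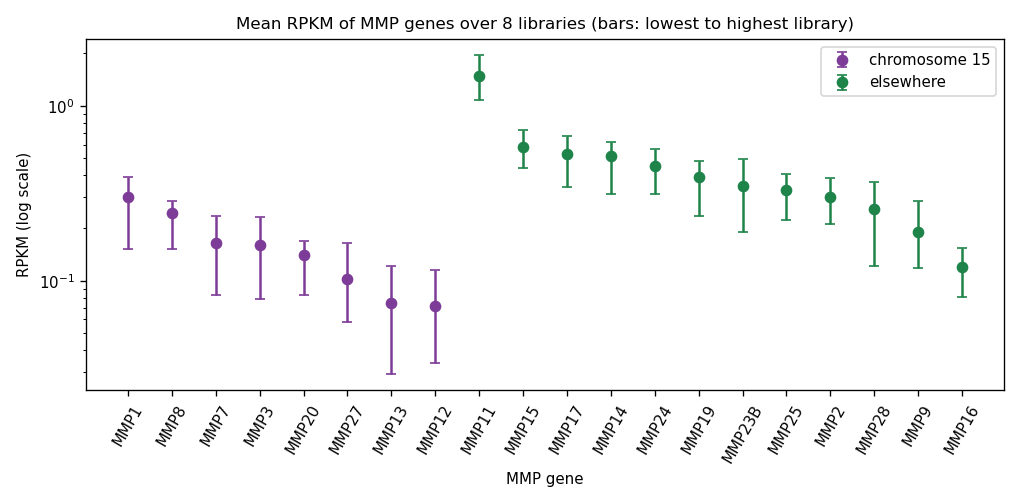
Mean RPKM over 8 libraries (log scale) of the 8 MMP genes on chromosome 15 and of the 12 on other chromosomes, with bars from the lowest to the highest library. MMP1 at 0.300 RPKM is the highest of the chromosome 15 genes, and MMP11 at 1.48 is the highest of the others.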

How the data were processed

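Members and lists were chosen with earlier results of these data known. Per the labels, genomic DNA was sonicated, ligated to adapters and enriched with methyl-binding domain proteins before Illumina sequencing. The submitters' processing notes name CASAVA 1.7, and the authors aligned the reads with NextGENe 2.3.4 to UMD v3.1. The authors deposited raw read counts in 3Kb windows, with gene name, strand and coding exon, beside the maximum and mean coverage (signal), which are not scaled for depth. How duplicate reads were treated before counting is not given in the sources used here.

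Windows were read as deposited and grouped by gene name. CPM and RPKM were computed from the counts with the reads over all windows as library size. Breeds were compared by the likelihood-ratio test of edgeR 4.0.16 in R 4.3.3 with TMM factors and no covariate, for windows and for counts summed over a gene's windows, for features of 1 CPM or more in 4 or more of the 8 libraries, with Benjamini-Hochberg adjustment over all features tested. Windows that missed the filter took values from the same fit without it, and standard errors came from the fitted negative binomial model. Named windows were each gene's first window by strand, its highest by mean CPM, any called window and the one with the smallest p without the filter. Results were recomputed with the edgeR quasi-likelihood test, DESeq2 1.42.0, other scalings, filters and thresholds, leaving out unplaced scaffolds, a replicate block and leaving out each library. The genome sequence of this build was not used here, so no sequence or CpG content is given.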

Additional observations from a re-analysis of the deposited data

Results flagged for a closer look

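Of 60 groups of 4 libraries examined (each member gene and named window in each breed), 2 held a library far from the rest, and chance gives about 1 in 20 such groups. Both concern Holstein 1 and MMP14, and they share reads. For MMP14 RPKM the gap of Holstein 1 to the nearest Holstein was 0.947 of the group's range (0.315 against 0.568 to 0.582), and for the third MMP14 window it was 0.948 (1.42 against 2.48 to 2.53 CPM). Holstein 1 had a TMM factor of 0.747 in the gene fit. With the values divided by the TMM factors, a check chosen after seeing the data, the widest gap at either end was 0.505 of the Holstein range for MMP14 RPKM and 0.511 for the third window, below Dixon's 95% critical value for 4 samples.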

How the results depend on the processing

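Under every alternative run, 0 member windows, 0 member genes and 0 other genes of the system were called, although the number of called windows over the whole genome ran from 141 with the quasi-likelihood test and with DESeq2 to 905 without the CPM filter, against 267, and that of genes from 0 with the quasi-likelihood test to 34 without the filter, against 14. The animal numbers in the labels showed no sign of pairing the samples, which was not tested. The mean correlation of deviations was -0.02 over the 4 pairs of the same number (-0.21 to 0.13) and 0.01 for different numbers. With the replicate block 0 member windows and 0 member genes were called. The count of genes with a low first window was 5, was 4 with the median of the other windows, where MMP2 dropped out, and 4 with the first window averaged with the one before it, where TIMP2 dropped out. Of 158 alternative log2 fold changes, 137 kept the direction and 21 reversed it, none of them called. For MMP11 the value was 0.15 with total counts only and 0.011 with the replicate block, and for TIMP2 it was -0.00025 with DESeq2, -0.00038 with DESeq2 size factors in edgeR, -0.0065 with CPM of 1 in all 8 libraries, and -0.045 with its whole span summed, an alternative chosen after seeing the data. Leaving out each library in turn gave ranges that crossed 0 for MMP13 (-0.042 to 0.44), MMP2 (-0.027 to 0.11), MMP9 (-0.068 to 0.23), MMP3 (-0.042 to 0.34), MMP11 (-0.16 to 0.11) and TIMP2 (-0.048 to 0.021). They kept the direction for MMP1 (0.13 to 0.50), MMP14 (-0.29 to -0.14) and TIMP3 (0.13 to 0.27), and total counts only gave -0.021 for MMP14 and 0.36 for TIMP3. The cause was not tested. MMP13 had the fewest reads, 13 in its lowest library, and the highest standard error, 0.29.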

Other observations

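Just downstream of MMP11 lies SMARCB1, a subunit of the SWI/SNF chromatin remodelling complex. The flanking window with its coding exon 1, chr17:73222794-73225793, held 0.657, 1.47, 1.32 and 1.04 CPM in Holsteins 1 to 4 and 1.92, 1.91, 0.840 and 2.19 in Angus 1 to 4. Angus 3 lay within the Holstein range and the other Angus libraries above it. The log2 fold change in the filtered edgeR fit was -0.72 (SE 0.21), with an unadjusted p of 6.54e-04 and an FDR of 0.146. Without the CPM filter the edgeR fit gave -0.74 (SE 0.26), with an unadjusted p of 0.0043 and an FDR of 0.751. The window was not called in either fit. Of the 36 flanking windows it was chosen after its values were seen. Within the span of TIMP2, the first window named LOC100125412 had a log2 fold change of -0.44 (SE 0.18) with an edgeR FDR of 0.703. Among the other genes of the system the lowest unadjusted p was that of TIMP1, an X-linked inhibitor gene, named after its values were seen, with a log2 fold change of 0.44 (SE 0.22) and an edgeR unadjusted p of 0.049.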
